A study of Mus musculus with 12 samples.

Results

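The RNAs encoded by the mitochondrial genome were followed in 12 libraries of mouse embryonic fibroblasts. Every row of the 12 gene tables whose symbol begins with mt- was taken, which gave 37 genes of 55573. They are 13 protein-coding genes, 2 ribosomal RNA genes and 22 transfer RNA genes, all on the mitochondrial chromosome (mm10). The study asks what FADD and caspase-8 hold back in cells that lack the necroptosis effector MLKL, and its title names Zbp1 and necroptosis. Fibroblasts had been immortalised with SV40 large T antigen and came in 2 lines. The Fadd line was Fadd -/- Mlkl -/- and carried an empty vector (the Fadd/Mlkl knockout group) or Fadd put back. The Casp8 line was Casp8 -/- Mlkl -/- and carried an empty vector (the Casp8/Mlkl knockout group) or Casp8 put back. All 4 groups therefore lack Mlkl, none was treated, and RNA was taken 24 h after plating. Each group had 3 libraries, from cultures that the labels call independent. Each genotype appears under 1 name, so a line may be 1 clone or pool of cells, which the labels do not say.

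The mitochondrial genome is a small circle that codes for core subunits of the respiratory chain and of ATP synthase, together with the ribosomal and transfer RNAs needed to make those proteins inside the organelle. It is copied into long transcripts from both strands, and the transfer RNAs that lie between the other genes are cut out to free the messenger and ribosomal RNAs. Most genes are read in one direction, and mt-Nd6 with some transfer RNAs in the other. Pieces of mitochondrial DNA have also been copied into nuclear chromosomes over evolution, and a long, near-perfect copy lies on mouse chromosome 1. All other respiratory subunits, and the enzymes that copy, transcribe, process and translate the mitochondrial genome, come from nuclear genes.

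The libraries held 33918359 to 59388559 expected counts. Fadd measured 0.176, 0.0364 and 0.0875 CPM (counts scaled to a common library size with TMM factors) in the Fadd/Mlkl knockout libraries and 19.1 to 26.1 CPM with Fadd put back. Casp8 measured 10.4 to 12.4 CPM in the Casp8/Mlkl knockout libraries and 67.6, 172 and 182 CPM in put-back libraries 1, 2 and 3. Mlkl still gave 3.69 to 15.9 CPM across the 12 libraries, and the tables do not show which exons these reads came from. The summed CPM of 10 fibroblast markers was 2061 to 3130 in the Fadd/Mlkl knockout group and 3357 to 4717 with Fadd put back. It was 6885 to 18872 in the Casp8/Mlkl knockout group and 10578 to 14737 with Casp8 put back. Thy1 was at 0 in every group other than the Casp8/Mlkl knockout, while summed markers of leukocytes, endothelium and muscle reached at most 2.07 CPM and those of epithelium 34.5 CPM. Fadd/Mlkl knockout library 1 stood apart in that nuclear protein-coding genes took 81.0% of its counts, against 84.8 to 88.5% in the other 11 libraries, and nuclear-annotated ribosomal RNA 0.108%, against at most 0.0227%.

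Before any comparison, the tables have to be read gene by gene, because 7 stretches of chromosome 1 (chr1:24611535-24616197, mm10, minus strand) are annotated as pseudogene copies of mitochondrial genes. The copies differ from their genes by few bases or none, and the counts fell on one side or the other. Of mt-Co2, mt-Atp6 and mt-Co3, which code for cytochrome c oxidase subunits 2 and 3 and for ATP synthase subunit 6, the copies match the gene over their whole length and stop 3, 3 and 1 bases before its end. The ends of these 3 pairs are shown because they hold the only letters of the annotated genes that are not also in the copy. They lie at chrM:7661-7696 and chr1:24614885-24614917 for mt-Co2, at chrM:8572-8607 and chr1:24613974-24614006 for mt-Atp6, and at chrM:9355-9390 and chr1:24613189-24613223 for mt-Co3. Genes are on the plus strand and copies on the minus strand, sequences are from the GENCODE M21 transcripts, and capitals mark the bases past the end of the copy.
mt-Co2: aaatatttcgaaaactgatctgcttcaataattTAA
Gm28661: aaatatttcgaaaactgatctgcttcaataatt
mt-Atp6: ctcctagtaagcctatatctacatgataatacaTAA
Gm10925: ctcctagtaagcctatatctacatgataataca
mt-Co3: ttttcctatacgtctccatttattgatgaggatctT
Gm28437: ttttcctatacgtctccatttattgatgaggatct

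The copies of mt-Nd3, a subunit of complex I, and of mt-Co1, the catalytic subunit of cytochrome c oxidase, differ from their genes by 1 base of 345 and 6 bases of 492. The start of each copy is shown beside the matching stretch of its gene, with the differing bases in capitals (chrM:9459-9494 and chr1:24613084-24613119, then chrM:6381-6416 and chr1:24616162-24616197). Counted from base 1 of the gene, the substitutions from gene to copy are T3C in mt-Nd3 and T1056A, C1057T, A1059G, A1060G, C1062A and A1066T in mt-Co1. The copy of mt-Co1 is partial and begins at base 1054 of the gene.
mt-Nd3: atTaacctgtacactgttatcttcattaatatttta
Gm28438: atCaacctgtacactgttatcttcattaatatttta
mt-Co1: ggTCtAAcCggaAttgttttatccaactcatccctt
Gm29216: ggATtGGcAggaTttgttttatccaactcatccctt

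The split of the counts differed between these genes. mt-Co2 had 0 or 1 count per library, while its copy Gm28661 had 23069 to 105205. mt-Atp6 had 4 counts, all in Casp8/Mlkl knockout library 1, and its copy Gm10925 had 8137 to 38666 per library. mt-Co3 had 18 counts, all in Casp8 put-back library 1, and its copy Gm28437 had 46384 to 144154. For these 3 genes the copy therefore held over 99% of the pair's counts in every library, and levels listed under the mitochondrial symbol say nothing about the messenger. The copies' TPM, a level per transcript length as deposited, reached 1360 to 3114 for Gm28437, 671 to 2768 for Gm28661 and 220 to 1024 for Gm10925. Gm28437 was above both mt-Nd3 and mt-Co1, the highest listed messengers, in all 12 libraries, and Gm28661 in 9 of 12. How far the nuclear copies are themselves transcribed cannot be told apart from mitochondrial reads counted there.

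In the other 4 pairs most counts stayed with the mitochondrial gene. Gm29216 held 20.3 to 25.1% of the counts of its pair with mt-Co1, and Gm28438 held 2.72 to 3.50% of the pair with mt-Nd3. The copies of mt-Nd4l (Gm10222, 294 bases) and of mt-Nd4 (Gm28439, 876 bases) are identical to the gene over their length, yet had 0 counts in all 12 libraries, against 109 to 480 counts for mt-Nd4l and 1464 to 5335 for mt-Nd4. A window of 100 bases, the length of a read, could come from either place for 99.5% of the windows of mt-Co2 and mt-Atp6, 99.9% of mt-Co3, 97.6% of mt-Nd3, 98.5% of mt-Nd4l, 60.8% of mt-Nd4 and 26.3% of mt-Co1. The 5 counted copies together took 0.226 to 0.677% of a library's counts. None of the mitochondrial genes' deposited values was a fraction.

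**Figure D1:**
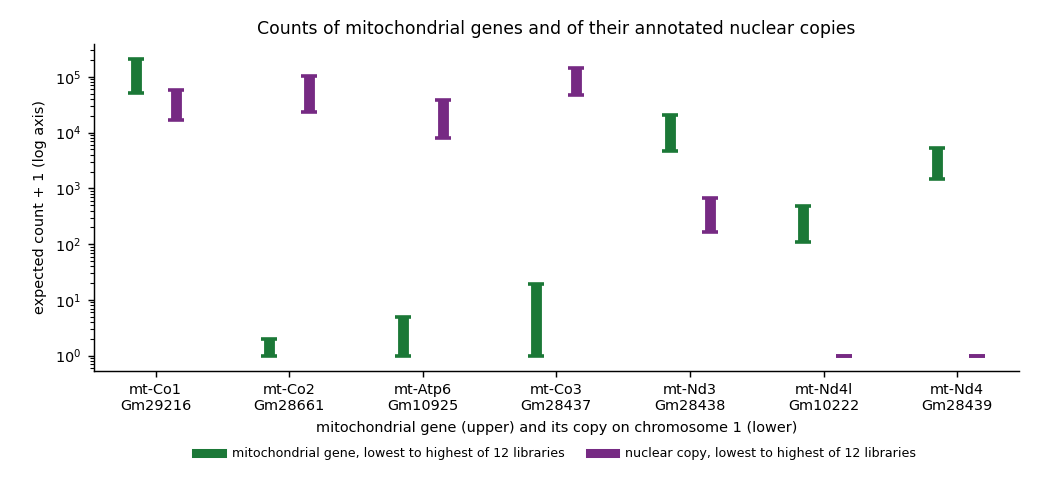
Expected counts of 7 mitochondrial genes (green) and of their annotated copies on chromosome 1 (purple), as the lowest to the highest of 12 libraries, plotted as count + 1 on a log axis. For mt-Co2, mt-Atp6 and mt-Co3 the copy holds the counts, and for mt-Nd4l and mt-Nd4 the copy is at 0.

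mt-Atp8, which codes for a small subunit of ATP synthase, had 0 counts in all 12 libraries, which allows up to 3 counts in each, and no copy of it is among the annotated pseudogenes. It lies between mt-Co2 and mt-Atp6, whose copies also lie next to each other on chromosome 1. One copy, Gm10925, ends at base 24614651 and the other, Gm28661, starts at base 24614885. Whether the unannotated stretch between them matches mt-Atp8 and drew its reads was not tested. The 0 counts therefore do not show that this messenger was absent. mt-Atp8 is 204 bases long (chrM:7766-7969, plus strand) and its last 43 bases, in capitals below, are also the first bases of mt-Atp6, with which it shares a transcript.
mt-Atp8: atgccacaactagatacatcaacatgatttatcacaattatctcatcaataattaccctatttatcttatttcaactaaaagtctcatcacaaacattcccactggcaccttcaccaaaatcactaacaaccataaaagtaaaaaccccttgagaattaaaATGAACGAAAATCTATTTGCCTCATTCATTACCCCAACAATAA

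Transfer RNAs were close to absent. They are 59 to 75 bases long, and 21 of 22 had 0 counts in every library, again allowing up to 3 counts in each. mt-Tm, the methionine transfer RNA, had 7 counts in all, spread over 5 libraries with at most 2 in any. No library therefore says anything about mitochondrial transfer RNA levels. In total 15 of the 37 genes had any count and 22 had none. The 11 genes that passed the filter on low counts were the 2 ribosomal RNAs and 9 messengers (mt-Nd1, mt-Nd2, mt-Nd3, mt-Nd4, mt-Nd4l, mt-Nd5 and mt-Nd6 of complex I, mt-Cytb of complex III and mt-Co1 of complex IV). These 11 are the genes that could be compared. On the plus strand they run from mt-Rnr1 (chrM:70-1024) and mt-Rnr2 (chrM:1094-2675) through mt-Nd1 (chrM:2751-3707), mt-Nd2 (chrM:3914-4951), mt-Co1 (chrM:5328-6872), mt-Nd3 (chrM:9459-9806), mt-Nd4l (chrM:9877-10173), mt-Nd4 (chrM:10167-11544) and mt-Nd5 (chrM:11742-13565) to mt-Cytb (chrM:14145-15288). mt-Nd6 (chrM:13552-14070) is on the minus strand.

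Per transcript length, mt-Rnr2, the RNA of the large mitochondrial ribosomal subunit, was the most abundant of the genes counted under a mitochondrial symbol. It averaged 2336 ± 810 TPM in the Fadd/Mlkl knockout and 2273 ± 509 TPM with Fadd put back (SD, n = 3 each here and below). It averaged 2192 ± 233 TPM in the Casp8/Mlkl knockout and 1833 ± 553 TPM with Casp8 put back. Gm28437, the copy of mt-Co3, lay above mt-Rnr2 in some libraries, as in Casp8 put-back library 1 (3114 against 2471 TPM). In others it lay below, as in Fadd/Mlkl knockout library 1 (1949 against 3268 TPM). Among the 9 messengers with counts under their own symbol, mt-Nd3 and mt-Co1 came first in all 12 libraries, with 499 to 1813 and 575 to 1904 TPM. Which of the pair was higher changed from library to library. mt-Nd1 (140 to 752 TPM) was the third and mt-Cytb (94.1 to 338 TPM) the fourth of these 9 in every library. mt-Rnr1, the RNA of the small ribosomal subunit, lay between 273 and 670 TPM. The remaining 5 messengers (mt-Nd6, mt-Nd2, mt-Nd4l, mt-Nd4 and mt-Nd5) lay between 13.1 and 121 TPM, and their ranges overlapped one another. mt-Nd4 ranked 5 among the messengers in Casp8/Mlkl knockout libraries 2 and 3, and 6 to 9 elsewhere.

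**Figure D2:**
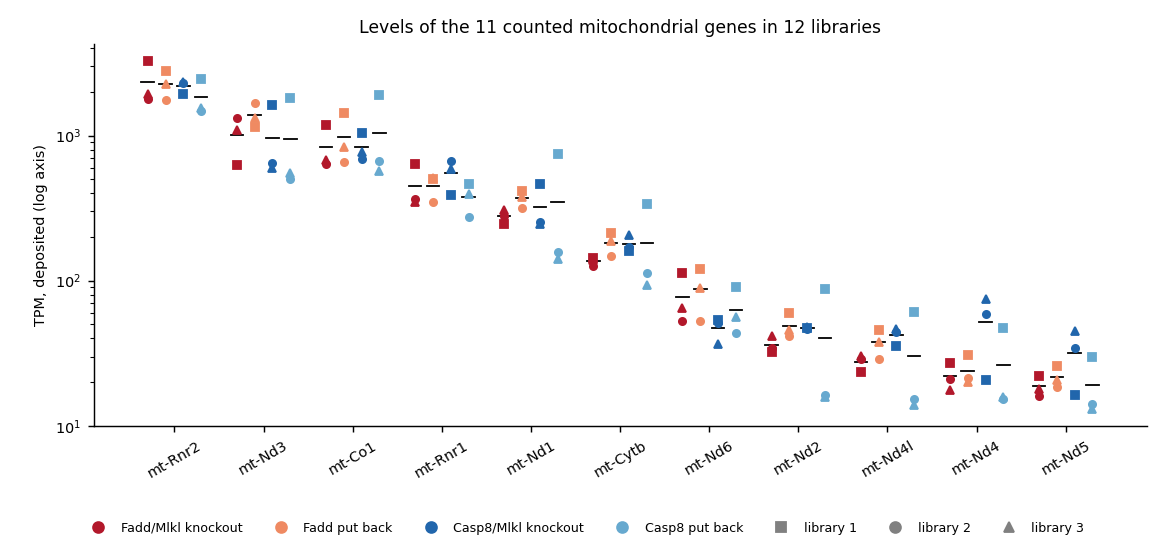
Deposited TPM of the 11 genes on a log axis, with 1 point per library (square, circle and triangle for libraries 1, 2 and 3) and a bar for the group mean. mt-Rnr2 is highest throughout and mt-Nd3 and mt-Co1 lead the messengers (mt-Rnr1 is above mt-Nd3 in 2 libraries), and library 1 of the Casp8 put-back group (light blue square) lies above its 2 partners for all 11 genes.

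In the Fadd line, none of the 11 genes passed the test between knockout and put-back cells. edgeR's quasi-likelihood test called 0 of 11 at an adjusted p under 0.05, against 1.52% of the 16396 genes tested, and no gene had an unadjusted p under 0.05. DESeq2 and limma-voom also called 0. The median log2 change was -0.08 (4 above 0, 7 below), beside 0.00376 over all genes, and single genes lay between -0.31 and 0.18. mt-Co1 had 3069, 1491 and 1695 CPM in the knockout, against 3165, 1491 and 1940 CPM with Fadd put back. Libraries 1 were the high ones on both sides, and the log2 change was -0.08 (SE 0.459). mt-Nd3 had 185, 337 and 311 CPM in the knockout and 271, 403 and 320 CPM with Fadd put back, so that the groups overlapped and library 1 was the low one in each. mt-Nd1 had 361, 363 and 430 CPM in the knockout, against 517, 397 and 489 CPM with Fadd put back. Its knockout mean was lower, the groups overlapped, and the log2 change of -0.28 (SE 0.531) did not pass the test. Within pairs of the same number, mt-Nd1, mt-Nd2, mt-Nd3, mt-Cytb and mt-Co1 were lower in the knockout in all 3 pairs, which makes 5 of 11 genes, against 27.1% of all genes, and a replicate block within the line still called 0 of 11. mt-Rnr2 had 8710, 4323 and 4955 CPM in the knockout and 6360, 4089 and 5431 CPM with Fadd put back. The high knockout value is that of library 1, the one with more nuclear ribosomal RNA, and without it the log2 change of 0.18 became -0.19 (adjusted p = 0.869 by edgeR). mt-Rnr1 likewise measured 933, 474 and 490 CPM in the knockout and 623, 439 and 654 CPM with Fadd put back. For none of the 11 genes did the groups fail to overlap, against 16.5% of all genes.

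The Casp8 line gave larger but more scattered differences, and again 0 of 11 genes was called, against 0.0061% of all genes. No gene had an unadjusted p under 0.05, and DESeq2 and limma-voom called 0 too. The median log2 change was 0.28 (7 above 0, 4 below), beside 0.00785 over all genes. mt-Nd4, a membrane subunit of complex I, had 40.5, 123 and 129 CPM in the knockout, against 87.2, 29.8 and 30.1 CPM with Casp8 put back. Knockout libraries 2 and 3 were therefore high and put-back libraries 2 and 3 low, with libraries 1 in the opposite order, and the log2 change of 0.99 (SE 0.488) had an adjusted p of 0.893 by edgeR. mt-Nd5, another membrane subunit, had 44.0, 98.7 and 107 CPM in the knockout and 76.2, 38.1 and 34.6 CPM with Casp8 put back. It had the same crossing of library 1 and a log2 change of 0.74 (SE 0.365, edgeR adjusted p = 0.893). mt-Nd2 had 64.5, 68.9 and 59.3 CPM in the knockout, against 114, 22.5 and 21.3 CPM with Casp8 put back. Its 3 knockout values were close together and lay between the put-back values. mt-Nd4l had 5.55, 8.60 and 7.49 CPM in the knockout and 9.33, 2.63 and 2.24 CPM with Casp8 put back. mt-Nd4l and mt-Nd4 overlap by 7 bases and share a transcript.

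The remaining genes in the Casp8 line were also not called. mt-Nd1 had 571, 339 and 272 CPM in the knockout, against 884, 196 and 170 CPM with Casp8 put back, a log2 change of -0.08 (SE 0.531). mt-Cytb, the cytochrome b of complex III, had 248, 283 and 286 CPM in the knockout and 497, 177 and 143 CPM with Casp8 put back. In both genes put-back library 1 was the highest of the 6 and put-back libraries 2 and 3 the lowest. mt-Nd3 had 376, 179 and 139 CPM in the knockout and 406, 124 and 130 CPM with Casp8 put back. Here library 1 was the high one in both groups. mt-Co1 had 2312, 1628 and 1514 CPM in the knockout, against 4007, 1487 and 1251 CPM with Casp8 put back, a log2 change of -0.31 (SE 0.459). mt-Nd6 had 27.3, 29.2 and 17.4 CPM in the knockout and 43.6, 22.7 and 28.1 CPM with Casp8 put back, which overlap, and its log2 change of -0.35 (SE 0.391) was the lowest of the 11. mt-Rnr1 had 479, 893 and 655 CPM in the knockout and 540, 340 and 479 CPM with Casp8 put back, and mt-Rnr2 4405, 5608 and 4743 CPM against 5343, 3388 and 3457 CPM. No gene's groups failed to overlap, against 10.7% of all genes, and no gene lay on the same side in all 3 pairs of the same number, against 27.5% of all genes.

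Single libraries turned several of these values. Put-back library 1 was the highest of its group for all 11 genes, and it was also the put-back library with the least Casp8 (67.6 CPM, against 172 and 182). Its part in the result was measured by leaving it out: edgeR then called mt-Nd2 higher in the knockout (log2 change 1.53, adjusted p = 0.0295), and mt-Nd1, mt-Co1 and mt-Cytb turned to log2 changes of 1.09, 0.40 and 0.75, none of them called. Without knockout library 1, mt-Nd3 turned to -0.47 (adjusted p = 0.783 by edgeR), against 0.073 with all libraries. Leaving out any other single library called 0 of the 11 genes in this contrast.

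Libraries numbered 1 differed from their partners in more than 1 group, so the changes were also fitted without all 4 of them, a choice made after seeing the data. In the Casp8 line 8 of 11 mitochondrial genes were then higher in the knockout and none lower, against 10.1% higher among the 16419 genes tested, and the median log2 change was 0.83. mt-Nd4 rose most, by a log2 change of 2.07 (edgeR adjusted p = 0.000183), followed by mt-Nd4l (1.72), mt-Nd2 (1.55) and mt-Nd5 (1.50). The remaining calls were mt-Rnr1 (0.92), mt-Cytb (0.83), mt-Nd1 (0.74) and mt-Rnr2 (0.60). mt-Co1 (0.20), mt-Nd3 (0.33) and mt-Nd6 (-0.12) were not called. In the Fadd line 0 of 11 was called in the same fit, against 6.1% of all genes, with log2 changes between -0.25 and 0.02. That fit rests on 2 libraries per group, which were not chosen at random, and 17.8% of all genes were called in the Casp8 line.

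**Figure D3:**
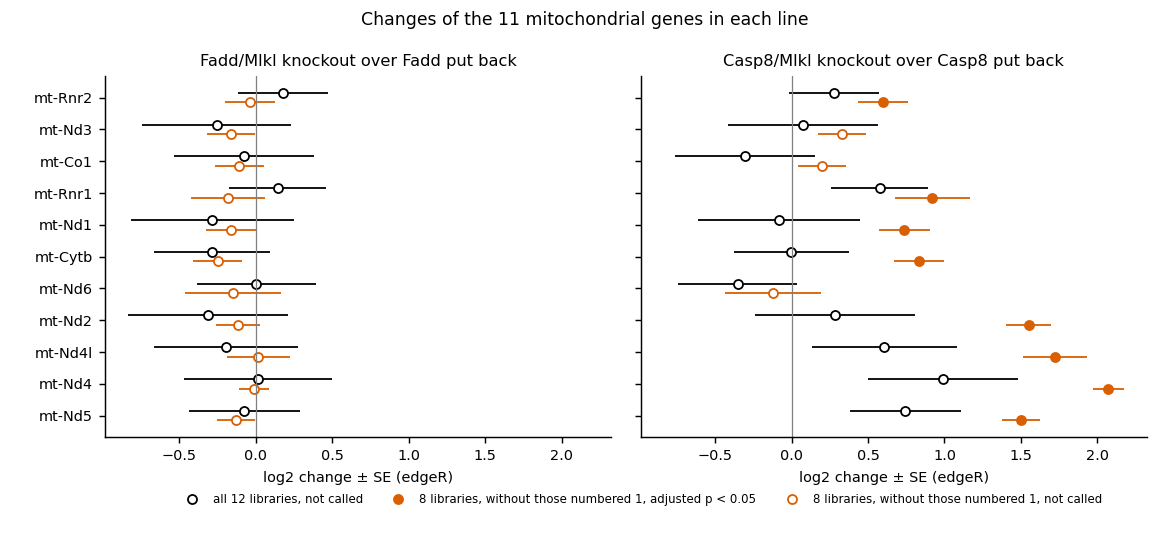
Log2 changes (points) with SE (bars) from edgeR for the 11 genes in the Fadd line (left) and the Casp8 line (right), with all 12 libraries (black) and without the 4 numbered 1 (orange); filled points passed an adjusted p of 0.05. With all libraries no gene passed in either line, and without libraries 1 the 8 filled points, led by mt-Nd4 at 2.07, are all in the Casp8 line.

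The difference between the lines' changes was tested directly and called 0 of 11 genes, against 0.842% of all genes. The difference is the change in the Fadd line minus that in the Casp8 line, and its median was -0.33, with 9 of 11 genes below 0. The value furthest from 0 was that of mt-Nd4, -0.97 (SE 0.685, edgeR adjusted p = 0.972). DESeq2 and limma-voom called 0, and no gene had an unadjusted p under 0.05. Without Casp8 put-back library 1 there was 1 call (mt-Nd2, -1.84, adjusted p = 0.0101). Without all 4 libraries numbered 1 there were 6, all lower (mt-Nd4 at -2.08, mt-Nd4l at -1.70, mt-Nd2 at -1.67, mt-Nd5 at -1.63, mt-Cytb at -1.08 and mt-Nd1 at -0.90), against 11.2% of all genes called and 7.62% lower.

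Between the lines, with the Fadd/Mlkl knockout set against the Casp8/Mlkl knockout, edgeR called 0 of 11 genes, against 10.5% of all genes. DESeq2 and limma-voom called 0, and 1 gene had an unadjusted p under 0.05. That gene was mt-Nd6, the only messenger read from the other strand, with 69.7, 28.9 and 38.3 CPM in the Fadd/Mlkl knockout and 27.3, 29.2 and 17.4 CPM in the Casp8/Mlkl knockout. Its log2 difference was 0.89 (SE 0.393, adjusted p = 0.191 by edgeR), and 1 Fadd/Mlkl knockout value lay just under the highest Casp8/Mlkl knockout value. mt-Nd4 had the difference furthest from 0, -1.03 (SE 0.488, edgeR adjusted p = 0.224). Without libraries 1 there were 3 calls (mt-Nd3 higher at 1.03, mt-Nd4 lower at -1.62 and mt-Nd5 lower at -1.05), against 41.5% of all genes. With both proteins put back, the Fadd line against the Casp8 line also gave 0 of 11 calls, against 6.34% of all genes, again with 0 by DESeq2, by limma-voom and at an unadjusted p under 0.05. The median was 0.34, with 9 of 11 genes above 0. Without Casp8 put-back library 1 there were 4 calls (mt-Nd2 at 1.65, mt-Nd1 at 1.35, mt-Nd4l at 1.32 and mt-Cytb at 0.85). Without all libraries numbered 1 there were 7, all higher, against 33.5% of all genes called and 16.6% higher. The share of genes whose groups did not overlap was 27.8% between the knockouts and 26.9% between the put-back groups over all genes, and 0 of 11 in both for the mitochondrial genes. The 2 contrasts between lines reuse the libraries of the 2 contrasts within them.

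By class, the 13 messengers together held 0.430, 0.263 and 0.286% of all counts in the Fadd/Mlkl knockout, against 0.488, 0.282 and 0.326% with Fadd put back. The knockout value was the lower one in each of the 3 pairs of the same number, and the group means of 0.327 and 0.365% differed by less than the spread between libraries (exact permutation p = 0.6, two-sided). Without put-back library 1 alone the difference of -0.0389 percentage points became 0.0227. Library 1 was the highest of both groups, and without libraries 1 on both sides the difference was -0.0291. As a share of deposited TPM the messengers held 0.242, 0.251 and 0.239% in the knockout, against 0.348, 0.295 and 0.294% with Fadd put back. On that scale the groups do not overlap, and the difference of -0.0685 percentage points has an exact permutation p of 0.1, two-sided, the smallest possible. This holds only with the copies left out. With the copies' TPM added the groups overlap, since knockout library 1 then lies above put-back library 2. In the Casp8 line the messengers held 0.355, 0.264 and 0.255% of counts in the knockout. With Casp8 put back they held 0.619, 0.197 and 0.174% (exact permutation p = 1). Put-back library 1 was the highest of all 12. Since counts under the nuclear copies are left out here, these shares lack most of mt-Co2, mt-Atp6 and mt-Co3. With copies included the shares ranged from 0.401 to 1.30% over the 12 libraries. In bulk RNA, fewer mitochondria, fewer transcripts per mitochondrion and a different mixture of cells cannot be told apart.

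The 2 ribosomal RNAs took 1.00, 0.491 and 0.542% of counts in the Fadd/Mlkl knockout and 0.748, 0.472 and 0.606% with Fadd put back. They took 0.470, 0.623 and 0.544% in the Casp8/Mlkl knockout, against 0.594, 0.350 and 0.379% with Casp8 put back. The ratio of ribosomal to messenger counts was 2.33, 1.87 and 1.89 in the Fadd/Mlkl knockout, against 1.53, 1.67 and 1.86 with Fadd put back. These groups do not overlap, by a narrow gap, and the difference of 0.26 on the log2 scale has an exact permutation p of 0.1, two-sided, the smallest that 3 against 3 libraries allow (adjusted 0.65 over the 13 tests of this kind). Without knockout library 1, the one with more nuclear ribosomal RNA, the difference was 0.159, and without the libraries numbered 1 it was 0.0907. Messenger counts here leave out those under the nuclear copies. With copies included, messengers held 0.955, 0.600 and 0.732% of counts in the knockout and 1.03, 0.649 and 0.750% with Fadd put back. Relative to these shares the groups overlap, with ribosomal RNA in knockout library 3 below that in put-back library 3. The ratio was not tested with copies included. In the Casp8 line the ratio was 1.32, 2.36 and 2.13 in the knockout and 0.961, 1.78 and 2.17 with Casp8 put back, which overlap (exact permutation p = 0.6). Within both groups library 1 had the lowest ratio. The sources used here do not say how ribosomal RNA was removed from the libraries, and the part of that step in these ratios was not tested.

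mt-Nd6 stands apart from the other messengers in its letters as well as in its strand. Its RNA is 28.1% G and 5.97% C, while the other 12 messengers are 5.88 to 16.1% G. The first 60 bases of mt-Nd6 (chrM:14011-14070, minus strand) and of mt-Co1 (chrM:5328-5387, plus strand) show the contrast, with G in capitals.
mt-Nd6: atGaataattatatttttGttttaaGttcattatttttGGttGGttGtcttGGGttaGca
mt-Co1: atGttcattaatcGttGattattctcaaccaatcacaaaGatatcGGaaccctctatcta

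As a share of messenger counts, which leave out the copies here, mt-Nd6 was 1.69, 1.12 and 1.33% in the Fadd/Mlkl knockout. With Fadd put back it was 1.36, 1.01 and 1.44% (exact permutation p = 0.6). It was 0.741, 1.06 and 0.688% in the Casp8/Mlkl knockout, against 0.712, 1.08 and 1.55% with Casp8 put back (exact permutation p = 0.4), a difference of -0.286 percentage points that became -0.0678 without put-back library 3 and -0.488 without put-back library 1. The Fadd/Mlkl knockout share was above the Casp8/Mlkl knockout share in every library, with means of 1.38 and 0.829%, and the exact permutation p of 0.1 is the smallest possible (adjusted 0.65 over 13 tests). The difference of 0.551 percentage points was 0.354 without the libraries numbered 1. mt-Nd6 overlaps mt-Nd5 on the opposite strand by 14 bases, and the sources used here do not say whether the counting used the strand.

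**Figure D4:**
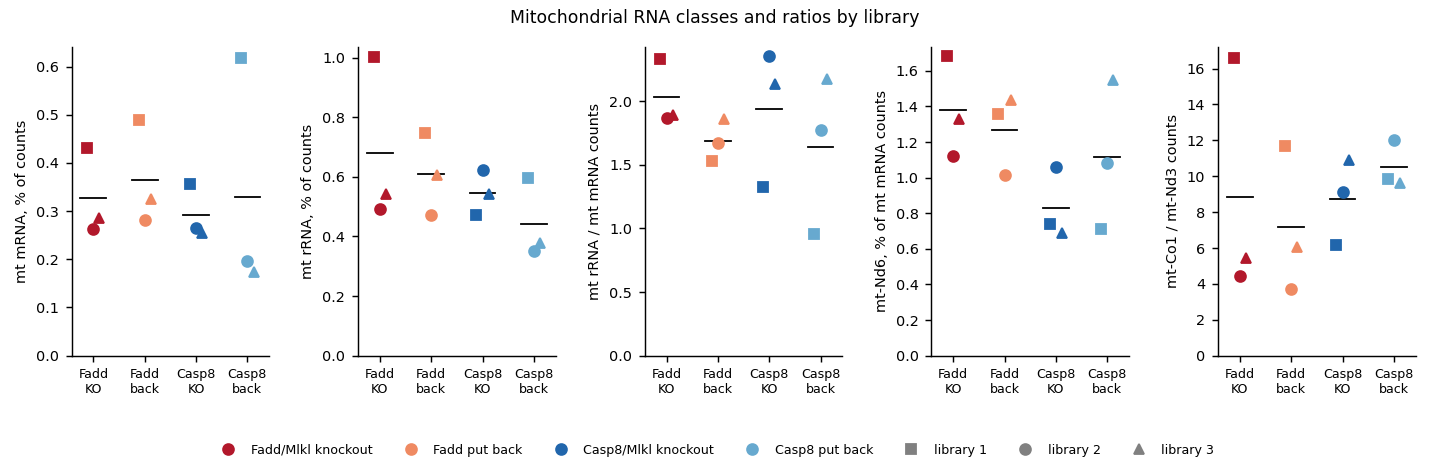
Shares of counts (first 2 panels), the ratio of ribosomal to messenger counts, the mt-Nd6 share of messenger counts and the ratio of mt-Co1 to mt-Nd3 counts, with 1 point per library and a bar for the group mean; all axes start at 0. Library 1 (square) has the highest messenger share in all 4 groups, and Casp8 put-back library 1 the lowest ribosomal to messenger ratio, 0.961. Messenger counts leave out those under the nuclear copies.

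Library number went with the summed share of mitochondrial messengers in all 4 groups. Libraries 1 held 0.355 to 0.619% messenger counts, and libraries 2 and 3 0.174 to 0.326%. mt-Co1 was highest in library 1 of all 4 groups, with 2312 to 4007 CPM, against 1251 to 1940 CPM in the 8 libraries numbered 2 or 3, so the ranges do not touch. In a fit with group as a term, set up after this was seen, libraries 1 exceeded libraries 2 and 3 in mt-Co1 by a log2 difference of 1.00 (SE 0.167, edgeR adjusted p = 0.0241). It was the only call among the 11 genes, against 3.32% of all genes called and 2.02% called higher. All 11 differences were above 0, with a median of 0.53, beside -0.01 over all genes. mt-Nd6, with the next lowest p, was at 0.71 (adjusted p = 0.0908), and mt-Nd1 at 0.90 (adjusted p = 0.164). With the copies' counts added to their genes, the same fit gave 1132 to 2045 CPM of mt-Co2 in libraries 1 and 513 to 1170 CPM in the others, a log2 difference of 0.99 (edgeR adjusted p = 0.0485). The difference was not uniform across messengers. mt-Co1 made up 55.1 to 74.3% of the messenger counts under mitochondrial symbols. These leave out nearly all counts of mt-Co2, mt-Atp6 and mt-Co3, so its part of all mitochondrial messengers is smaller. Of the 11 genes mt-Co1 alone was highest in library 1 of all 4 groups. Each of the others was so in 2 or 3 groups. In the Casp8/Mlkl knockout, library 1 was the lowest for mt-Nd4, mt-Nd5, mt-Nd4l and mt-Cytb. For mt-Nd3 it was the lowest in both groups of the Fadd line. The ratio of mt-Co1 to mt-Nd3 counts was 16.6, 4.43 and 5.46 in the Fadd/Mlkl knockout and 11.7, 3.70 and 6.06 with Fadd put back, with library 1 far above its partners. The ratio was 6.14, 9.10 and 10.9 in the Casp8/Mlkl knockout, against 9.86, 12.02 and 9.65 with Casp8 put back, and library 1 was not the highest. The labels do not say what a replicate number marks, so the part of a shared preparation or day was not tested.

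Nuclear genes that work with the mitochondrial genome were read as a background to these results. Lists covered subunits of the 5 complexes (75 genes), replication, transcription and RNA processing factors, mitochondrial ribosomal proteins, transfer RNA synthetases and regulators of biogenesis, 214 genes in all. In the Fadd line 1 was called higher and 1 lower in the knockout, 0.935% of the lists against 1.52% of all genes, with a median log2 change of -0.05. Ndufb11, an accessory subunit of complex I on the X chromosome (chrX:20615326-20617619), had 31.4, 30.4 and 29.6 CPM in the knockout, against 58.6, 56.7 and 53.2 CPM with Fadd put back. These groups are far apart, and the fall was -0.88 on the log2 scale (SE 0.136, edgeR adjusted p = 0.00788), lost narrowly when knockout library 2 or 3 was left out (0.0514 and 0.0523). Cox6c, a small subunit of cytochrome c oxidase (chr15:35925886-35938246), had 185, 243 and 279 CPM in the knockout and 104, 122 and 133 CPM with Fadd put back. Its log2 change of 0.98 (SE 0.204) had an adjusted p of 0.0397 by edgeR, which passed 0.05 in 4 of the 12 fits that leave out 1 library (0.0179 to 0.173) and not with a replicate block over all 12 libraries (0.0727) or with only the libraries compared (0.0889). The other 73 respiratory subunits were not called, and their list medians in this contrast lay between -0.10 for complex V and 0.02 for complex IV. Of the regulators of biogenesis, the coactivator gene Ppargc1b had a log2 change of 1.02 (unadjusted p = 0.0253, adjusted p = 0.355 by edgeR).

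In the Casp8 line 0 of the 214 nuclear genes was called, against 0.0061% of all genes, and the median log2 change was -0.12, with 45 above 0. The fit without libraries 1 was chosen after seeing the data and rests on 2 libraries per group. In it 8 of 11 mitochondrially encoded genes were higher in the Casp8/Mlkl knockout, against 10.1% higher among all genes. Put-back library 1, left out there, was the highest of its group for all 11, so these calls are not an independent result. None of the 214 nuclear genes was higher and 60 were lower in the same fit, against 7.75% lower among all genes. The lower genes included 32 of 78 mitochondrial ribosomal proteins (list median -0.37), 6 of 17 transfer RNA synthetases (-0.44), 5 of 18 RNA processing factors (-0.42), 3 of 9 transcription factors (-0.49) and 12 of 75 respiratory subunits (-0.21). In that fit the median of the mitochondrial genes was 0.83, and that of all genes 0.03. In the Fadd line the same fit called 1 of 214 higher and 2 lower, 1.40% of the lists against 6.1% of all genes, with a median of 0.02.

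Between the lines, 3 nuclear genes were higher and 1 lower in the Fadd/Mlkl knockout than in the Casp8/Mlkl knockout, 1.87% of the 214 against 10.5% of all genes. With the proteins put back 3 were called, 1.40% against 6.34%. Without libraries 1, a fit on 2 libraries per group, this changed. Between the knockouts 141 were then higher and 2 lower in the Fadd line, 66.8% of the 214 against 41.5% of all genes. Between the put-back groups 47 were higher and 9 lower, 26.2% against 33.5%. Ndufb9, an accessory subunit of complex I (chr15:58933756-58939488), had 175, 237 and 286 CPM in the Fadd/Mlkl knockout, against 109, 71.1 and 61.5 CPM in the Casp8/Mlkl knockout, a log2 difference of 1.53 (SE 0.236, edgeR adjusted p = 0.00239). Mrpl13, a protein of the large mitochondrial ribosomal subunit (chr15:55534094-55557748), had 98.2, 187 and 207 CPM in the Fadd/Mlkl knockout, against 74.3, 52.9 and 49.9 CPM in the Casp8/Mlkl knockout, a log2 difference of 1.48 (SE 0.281, adjusted p = 0.00749). Both also differed with the proteins put back. Ndufb9 then had 166, 189 and 207 CPM in Fadd put-back cells and 83.1, 74.6 and 72.8 CPM in Casp8 put-back cells (log2 difference 1.29, edgeR adjusted p = 0.0112). Mrpl13 had 99.8, 141 and 158 CPM in Fadd put-back cells and 53.4, 61.9 and 55.9 CPM in Casp8 put-back cells (1.22, adjusted p = 0.0287). The groups did not overlap in any of these 4 comparisons, against 27.8% of all genes between the knockouts and 26.9% between the put-back groups. Between the knockouts, Ndufa13 was higher in the Fadd line at 0.45 (adjusted p = 0.0417) and Ndufb11 lower at -0.55 (adjusted p = 0.0250). Other settings ended both calls: edgeR's adjusted p was 0.151 and 0.0681 with no filter and 0.175 and 0.108 with only the libraries compared, and limma-voom gave 0.0502 for Ndufa13. With the proteins put back, Mtpap, the mitochondrial poly(A) polymerase that adds tails to these messengers, was lower in the Fadd line, with 17.9, 23.7 and 26.2 CPM, against 29.3, 54.6 and 49.6 CPM in Casp8 put-back cells. Its log2 difference was -0.97 (SE 0.237, edgeR adjusted p = 0.0362; 0.105 with only the libraries compared and 0.0527 with limma-voom). Leaving out 1 library ended the call in 10 of 12 fits for Ndufa13, 7 for Mtpap and 5 for Ndufb11 between the lines. Between the put-back groups it did so in 4 of 12 fits for Mrpl13 and 2 for Ndufb9, and between the knockouts in 0 of 12 for both.

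**Figure D5:**
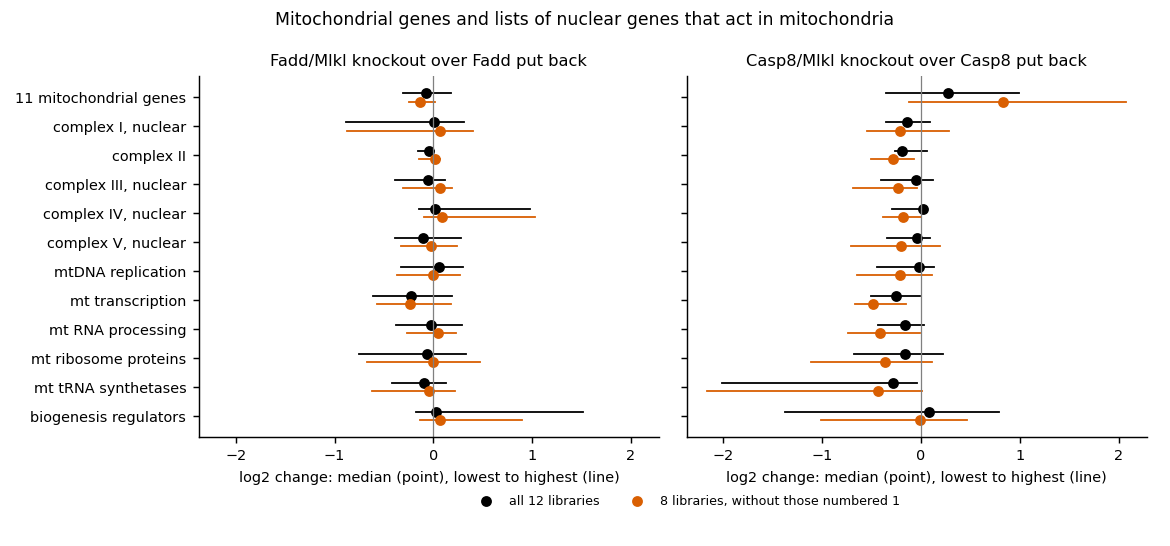
Log2 changes of the 11 mitochondrial genes and of 11 lists of nuclear genes that act in mitochondria, as the median (point) and the lowest to highest gene (line), in the Fadd line (left) and the Casp8 line (right), with all 12 libraries (black) and without the 4 numbered 1 (orange). Without libraries 1 the mitochondrial median in the Casp8 line is 0.83, and the list medians lie between -0.49 and -0.01. That fit was chosen after seeing the data and rests on 2 libraries per group.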

How the data were processed

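RNA from 12 cultures, 3 in each of 4 groups, was sequenced as stranded total RNA libraries with 100-cycle paired reads, per the labels' protocols. Per the labels, the authors trimmed reads with Cutadapt in Trim Galore 0.5.0, aligned them with STAR 2.7.5a to mm10 with the GENCODE M22 annotation and counted genes with RSEM; versions come from the submitters' processing notes. The authors deposited, for each gene, an expected count and a TPM value (a level scaled by transcript length and depth), per the file headers; the FPKM column was not used here. How RSEM shared reads between mitochondrial genes and nuclear copies, whether strand was used and how ribosomal RNA was removed are not given in the sources used here. Each table has 55665 rows, of which 92 spike-in rows with 0 counts were left out. A separate table of retroviral regions, with 12 columns of values per library, was not used here.

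Positions, strands and sequences came from GENCODE M21 (GRCm38, the same assembly as mm10), which matched 55094 of 55573 gene identifiers. Each copy was aligned to its gene with Biopython 1.88. Expected counts were rounded, genes were kept by filterByExpr in edgeR 4.0.16 (R 4.3.3) with a minimum count of 10, and edgeR's quasi-likelihood test was run on 4 group means over all 12 libraries, scaled by TMM. P-values were adjusted by Benjamini and Hochberg's method over 16396 genes, and an adjusted p under 0.05 is called. The common biological coefficient of variation was 0.37. The fit was tested on simulated data. Standard errors were computed from each change and the F value of its test. Library shares and ratios were compared with exact two-sided permutation tests in SciPy 1.17.1, for which 3 against 3 libraries cannot go below 0.1 and 3 pairs cannot go below 0.25. A count of 0 allows up to 3 counts, a limit that covers counting error alone.

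Alternatives were RLE scaling, library sizes without the mitochondrial genes, no filter, DESeq2 1.42.0, voom in limma 3.58.1, the compared libraries alone, a replicate block and leaving out each library. Adding the copies' counts to their genes, and leaving out the 4 libraries numbered 1, were added after seeing the data. Libraries of the same number deviated together within each line, with correlations of deviations from the group means of 0.642, 0.360 and 0.612 in Fadd-line pairs and 0.208, 0.299 and 0.130 in Casp8-line pairs. Numbers were therefore treated as pairing libraries in the pair counts, the replicate block within each line and the sign-flip tests. The labels do not say what the numbers mark. The main edgeR and permutation tests compared the groups without this pairing. Between the knockout groups the correlations were -0.238, 0.0752 and -0.355. Between the put-back groups of the different lines they were 0.309, 0.147 and 0.236, about as high as in the Casp8-line pairs. Shared deviation by number was therefore not particular to pairs within a line. The members, nuclear lists and marker lists were chosen with earlier results of these data known. All 37 mitochondrial genes are described; of each nuclear list, up to 4 called genes per contrast by size of change are named, or the 2 with the lowest p in the Fadd line. Of these last, only Ppargc1b is printed, the one with an unadjusted p under 0.05.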

Additional observations from a re-analysis of the deposited data

How the results depend on the processing

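With all 12 libraries, edgeR, DESeq2, limma-voom, RLE scaling, library sizes without the mitochondrial genes, no filter, the compared libraries alone and the copies' counts added to their genes each called 0 mitochondrial genes in every contrast they were fitted to. So did a replicate block over all 12 libraries or within each line, and it ended no other printed call than that of Cox6c over all 12 libraries (adjusted p = 0.0727). With the copies' counts added, 0 of 55 changes had another sign. In the other settings named here 21 of 407 did, none beyond 1 SE, the size above which a change of sign is counted as a reversal unless the value is called. Leaving out 1 library gave 0 to 1 call in the Casp8 line and in the difference between lines, 0 to 4 between the put-back groups, each time for Casp8 put-back library 1 alone, and 0 in the other 2 contrasts.

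Without the libraries numbered 1 there were 8 calls in the Casp8 line, 6 in the difference between lines, 3 between the knockouts and 7 between the put-back groups. Signs then reversed for mt-Rnr1 in the Fadd line (-0.18), mt-Nd1 (0.74), mt-Co1 (0.20) and mt-Cytb (0.83) in the Casp8 line, mt-Rnr2 between the knockouts (-0.16) and mt-Nd4 between the put-back groups (0.46). Single libraries left out spanned, in the Fadd line, -0.25 to 0.35 for mt-Rnr1, -0.19 to 0.40 for mt-Rnr2 and -0.44 to 0.34 for mt-Nd6. In the Casp8 line they spanned -0.47 to 0.86 for mt-Nd3, -0.45 to 1.09 for mt-Nd1, -0.59 to 0.40 for mt-Co1 and -0.31 to 0.75 for mt-Cytb. They spanned -0.083 to 0.53 for mt-Rnr2 between the knockouts, -0.46 to 0.64 for mt-Co1 in the difference between lines, and -0.41 to 0.69 for mt-Co1 and -0.31 to 0.66 for mt-Nd4 between the put-back groups.

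No difference in messenger share (percentage points) passed a test. The permutation tests of 3 against 3 libraries cannot go below 0.1, so they could not have passed 0.05. When 1 library was left out, the difference in share spanned -0.0907 to 0.0227 in the Fadd line and -0.117 to 0.106 in the Casp8 line. It spanned -0.144 to 0.0778 for the difference between lines. Between the knockouts it spanned -0.0168 to 0.0670 and between the put-back groups -0.0427 to 0.179. Without libraries 1 it was -0.0291 in the Fadd line and 0.0736 in the Casp8 line. The difference between lines was 0.00879 as a share of nuclear protein-coding counts and 0.0231 with the copies added, and in TPM it was -0.00699 between the knockouts and -0.0685 in the Fadd line, where the groups did not overlap (exact permutation p = 0.1, the smallest possible). With the copies' TPM added, the groups of the Fadd line overlapped. A replicate block over pairs gave -0.0389 in the Fadd line (exact sign-flip p = 0.25, the smallest possible). The log2 ratio of ribosomal to messenger counts, copies left out, spanned 0.159 to 0.336 in the Fadd line. In the Casp8 line it spanned -0.0627 to 0.535. The ratio spanned -0.151 to 0.265 between the knockouts and -0.224 to 0.366 between the put-back groups. Without libraries 1 the last 2 were -0.255 and -0.155. The mt-Nd6 share spanned -0.0427 to 0.238 points in the Fadd line, -0.488 to -0.0678 in the Casp8 line, 0.398 to 0.679 between the knockouts and -0.0468 to 0.373 between the put-back groups, where it was -0.0912 without libraries 1. The cause of these shifts was not tested. With 3 libraries per group and this spread, a p that misses the threshold does not show equal levels, and depth limits mt-Nd4l (109 counts at the lowest) and the transfer RNAs most.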
